A study of Homo sapiens with 7 samples.

Results

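Acute-phase proteins are plasma proteins that the liver secretes in larger amounts during inflammation, mostly in response to interleukin-6 and interleukin-1. Described here in Huh-7 cells are 10 genes listed as acute-phase proteins of the liver, HP, HPX, CP, ORM1, ORM2, SAA1, SAA2, SAA4, CRP and LBP. Whether each of them rises in inflammation was not examined. They were taken by symbol, with earlier results of these data known, and each symbol was found once among the 58174 genes of the table. Huh-7 is a cell line derived from a human hepatocellular carcinoma. The cells received either a control siRNA (siC, 3 libraries) or a pool of siRNAs against the RNA-binding protein IGF2BP1 (siIGF2BP1, 4 libraries, named siImp1 in the labels), were grown in medium with serum, and were harvested 72 h later for total RNA-seq. All libraries come from 1 cell line and no inflammatory cytokine is named in either group. The labels do not say whether replicates were separate cultures, so p-values measure the spread between these libraries. In such bulk RNA, fewer cells that express a gene and less RNA per cell cannot be told apart. Means are given ± SD over the 3 siC and the 4 siIGF2BP1 libraries.

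In an acute-phase response, cytokine receptors on the hepatocyte pass their signal to the kinase JAK1 and the transcription factor STAT3, or through MYD88 and IRAK1 to NF-κB. Together with C/EBP factors and the liver factor HNF4A, these raise transcription of the plasma protein genes, while the genes of carrier proteins such as albumin and transferrin are turned down. The members have separate tasks in plasma. Haptoglobin (HP) captures free haemoglobin, hemopexin (HPX) captures free haem, and ceruloplasmin (CP) carries copper and oxidises iron. The α1-acid glycoproteins (ORM1 and ORM2) bind drugs and lipids, the serum amyloid A proteins (SAA1, SAA2 and SAA4) travel on high-density lipoprotein, C-reactive protein (CRP) is a pentraxin that binds microbial and damaged cell surfaces, and LBP hands bacterial lipopolysaccharide to CD14.

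The abundance of 5 members, HP, HPX, CP, ORM1 and ORM2, was above 1 FPKM in each library. All 5 were higher in each siIGF2BP1 library than in any siC library, as were 11.9% of all genes tested. For all 5, siC replicate 3 was the lowest of the 7 libraries. FPKM is a fragment count divided by gene length and by library size. HP showed the largest change among them, at 3.52 times its siC mean, and the other 4 were at 1.57 to 1.89 times. Of the 5, HP and CP passed as higher at an adjusted p of at most 0.01 by limma, and HPX missed it narrowly. By the same measure 1.65% of all genes tested were higher. The study set the same threshold on another test, edgeR, whose results were not used here. HP and CP each passed in 1 of the 7 fits that left out 1 library, that without siC replicate 3. The other 5 members, SAA1, SAA2, SAA4, CRP and LBP, were at or near 0 in both groups.

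ORM1 and ORM2 lie next to each other on chromosome 9, and SAA1 and SAA2 are near copies on chromosome 11. Their coding sequences are shown first because reads from such copies are hard to assign. In GENCODE transcripts on GRCh38, the 603 coding bases of ORM1 and ORM2 differ at 31 positions (94.9% identical). The 366 coding bases of SAA1 and SAA2 differ at 11 positions (97.0% identical). The lines give coding bases 338 to 397 of the ORM pair and 229 to 288 of the SAA pair, counted from the first base of the start codon. These are the stretches of 60 bases that hold the most differences (14 and 8), and capitals mark the bases that differ within the pair.
ORM1: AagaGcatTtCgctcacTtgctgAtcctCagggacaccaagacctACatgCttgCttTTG
ORM2: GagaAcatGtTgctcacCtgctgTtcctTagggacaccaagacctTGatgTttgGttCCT
SAA1: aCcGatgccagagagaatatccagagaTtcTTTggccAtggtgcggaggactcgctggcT
SAA2: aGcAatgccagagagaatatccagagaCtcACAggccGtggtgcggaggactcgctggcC

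Windows of 50 bases were compared between whole transcripts to see how much of each could be read without ambiguity. Of the windows of ORM1, 49.8% also occurred in ORM2. For SAA1, 40.9% of windows occurred in SAA2 and 0 of 469 in SAA4. HP has a neighbouring relative, HPR, which held 30.2% of the windows of HP. How reads that match more than 1 place were counted is not given in the sources used here. The separate values of ORM1 and ORM2, of SAA1 and SAA2, and of HP and HPR are uncertain to that extent.

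Promoters from the RefSeq table (GRCh38.p14) were found for 4 of the 10 members, HPX, ORM1, SAA4 and CRP. The 250 bases before the start site are shown for HPX and ORM1, whose groups did not overlap, and for CRP, which was nearly without reads. The windows were searched on both strands for the letters TTNNGNAA, a core of sites of C/EBP factors. A second search used TTCNNNGAA, the palindrome of STAT factors. Capitals mark C/EBP matches, which were the only matches in these 3 windows and did not overlap each other.
HPX, chr11:6440988-6441237, minus strand: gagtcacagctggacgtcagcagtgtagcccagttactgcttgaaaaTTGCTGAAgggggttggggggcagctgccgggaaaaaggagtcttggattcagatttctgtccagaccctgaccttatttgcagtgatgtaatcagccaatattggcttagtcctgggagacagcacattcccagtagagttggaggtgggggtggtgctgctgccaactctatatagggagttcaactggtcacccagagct
ORM1, chr9:114322848-114323097, plus strand: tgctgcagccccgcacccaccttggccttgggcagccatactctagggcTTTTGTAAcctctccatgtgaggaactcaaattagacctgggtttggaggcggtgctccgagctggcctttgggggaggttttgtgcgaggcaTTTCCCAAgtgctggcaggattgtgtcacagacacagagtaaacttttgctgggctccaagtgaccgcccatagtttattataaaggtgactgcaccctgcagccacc
CRP, chr1:159714590-159714839, minus strand: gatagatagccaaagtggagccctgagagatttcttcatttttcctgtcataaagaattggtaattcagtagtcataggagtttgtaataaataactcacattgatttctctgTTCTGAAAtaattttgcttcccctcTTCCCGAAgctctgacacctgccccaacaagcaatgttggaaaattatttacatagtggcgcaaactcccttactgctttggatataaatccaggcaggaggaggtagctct

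HPX had 1 C/EBP match, and ORM1 and CRP had 2 each. The fourth promoter, that of SAA4, had 6 such matches, no STAT match and 1 HNF1 match. The C/EBP letters occurred in 33.2% of the 35116 promoters of the table, the STAT letters in 6.57% and the HNF1 letters in 6.23%. A match is a description of the letters in the window and not of binding.

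Libraries held from 12826550 to 33212205 reads on genes. IGF2BP1, the targeted gene, was at 82.2 ± 2.03 FPKM in siC and 15.8 ± 0.583 FPKM in siIGF2BP1. Among the libraries siC replicate 3 stood apart. The SD over 14711 genes of its log2 distance from the rest of its group was 0.699, against at most 0.518 for any other library. That distance followed the GC content of transcripts with a Spearman's rho of -0.43, and rho was from -0.398 to 0.438 in the other libraries. The rho of siC replicates 1 and 2, 0.438 and 0.303, rests on distances from means that include siC replicate 3. For each of the 5 members above 1 FPKM, siC replicate 3 was the lowest of the 7 libraries, so results are also given without it. Of 10 hepatocyte markers all 10 were tested, AFP and ALB reaching means of 3151 and 1814 FPKM in siC. Of 10 markers of other liver cells, the leukocyte and macrophage markers PTPRC, CD68 and CSF1R were below 0.1 FPKM on average in both groups and KRT7 was at 0. Others of the list were present. LYZ, KRT19 and PECAM1 had means of 157.3, 42.8 and 2.81 FPKM in siC and 121.7, 36.5 and 3.01 FPKM in siIGF2BP1. The summed level of these 10 markers, nearly all of it LYZ and KRT19, ran from 178.3 to 215.8 FPKM in siC and from 148.1 to 169.9 FPKM in siIGF2BP1.

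Of the members, 5 had a mean of 1 FPKM or more over the 7 libraries and entered the limma fit, which covered 14839 genes. None passed it through 1 group alone. At the threshold, 2 of these 5 were higher and 0 lower, whereas 1.65% of all genes tested were higher and 2.28% were lower. Groups that did not overlap, with siIGF2BP1 higher, were found for 5 of 5 members and for 11.9% of all genes tested. All 5 had an adjusted p of at most 0.05, as did 4.74% of all genes tested in the higher direction. The median log2 difference of the 5 was 0.92, against -0.017 over all genes tested.

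**Figure D1:**
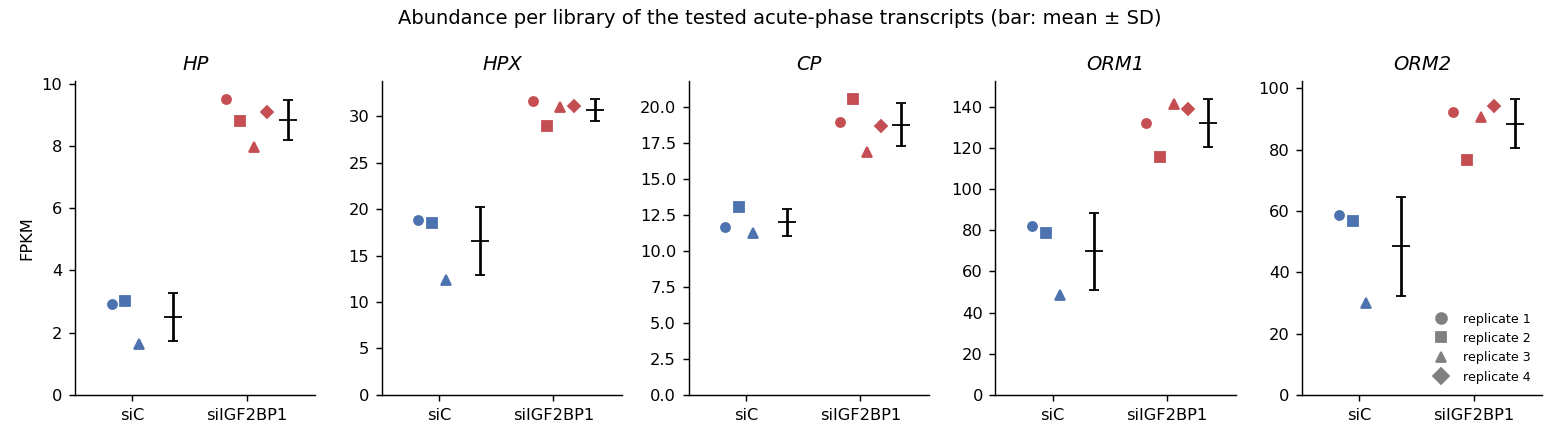
FPKM (linear axes from 0) of HP, HPX, CP, ORM1 and ORM2 in each siC (blue) and siIGF2BP1 (red) library, with the marker shape giving the replicate and the black bar the mean ± SD. Every red point lies above every blue point, and siC replicate 3 (blue triangle) is the lowest point in each panel.

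HP (ENSG00000257017, GRCh38 chromosome 16, 72054505 to 72061055, plus strand, 7 exons) was at 2.91, 3.01 and 1.63 FPKM in siC replicates 1 to 3. In siIGF2BP1 replicates 1 to 4 it was at 9.50, 8.81, 7.96 and 9.09 FPKM. The groups did not overlap, and the lowest depleted library was far above the highest control. Means were 2.51 ± 0.770 FPKM and 8.84 ± 0.651 FPKM. The log2 difference of HP was 1.82 (SE 0.208, 95% interval 1.33 to 2.31, adjusted p = 0.00291 by limma), from 121 to 930 reads per library. Without siC replicate 3 the ratio of means fell from 3.52 to 2.99, and the log2 difference was 1.54 (adjusted p = 0.000329 by limma). When 1 of the other 6 libraries was left out, its adjusted p was just above the threshold each time and at most 0.0163.

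HPX (ENSG00000110169, chromosome 11, 6431049 to 6442617, minus strand, 10 exons) was at 18.8, 18.5 and 12.4 FPKM in siC. It was at 31.6, 29.0, 30.9 and 31.0 FPKM in siIGF2BP1, where the 4 values lay close together. The mean went from 16.6 ± 3.64 FPKM to 30.6 ± 1.15 FPKM, a ratio of 1.85. Its log2 difference of 0.91 (SE 0.148, 95% interval 0.56 to 1.26) had a limma adjusted p of 0.0109 and did not pass. Without siC replicate 3 the log2 difference was 0.71 and passed (adjusted p = 0.000526 by limma). HPX also passed after each library's trend with GC content was removed (log2 difference 0.93, adjusted p = 0.0013 by limma).

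CP (ENSG00000047457, chromosome 3, 149162410 to 149221829, minus strand, 19 exons) was at 11.6, 13.04 and 11.2 FPKM in siC. The siIGF2BP1 libraries had 19.0, 20.5, 16.8 and 18.6 FPKM. Here siC replicate 3 was close to the other controls, at 0.911 of their mean, against 0.517 to 0.663 for the other 4 members. The transcripts of CP have a GC content of 40.2%, and those of the other 4 have 49.8% to 54.5%. Means were 11.965 ± 0.953 FPKM and 18.7 ± 1.499 FPKM, a ratio of 1.57. CP passed with a log2 difference of 0.64 (SE 0.0875, 95% interval 0.44 to 0.85, adjusted p = 0.00575 by limma), which was 0.60 without siC replicate 3 (adjusted p = 0.00571 by limma). Without any 1 of the other 6 libraries its adjusted p was from 0.0126 to 0.0283 and did not pass. An exon of CP overlaps an exon of HPS3 on the other strand, and whether reads were assigned by strand is not given in the sources used here.

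ORM1 (ENSG00000229314, chromosome 9, 114323098 to 114326479, plus strand, 6 exons) was the most abundant member. It was at 81.9, 78.8 and 48.4 FPKM in siC and at 132.0, 115.5, 141.2 and 138.9 FPKM in siIGF2BP1. The lowest depleted library, replicate 2, was still above the highest control. From 69.7 ± 18.5 FPKM the mean reached 132 ± 11.6 FPKM, a ratio of 1.89. The log2 difference of 0.95 (SE 0.190, 95% interval 0.51 to 1.40, adjusted p = 0.0216 by limma) did not pass. It passed without siC replicate 3, with 0.71 (adjusted p = 0.0031 by limma).

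ORM2 (ENSG00000228278, chromosome 9, 114329869 to 114333251, plus strand, 6 exons) was at 58.8, 56.9 and 29.9 FPKM in siC. Depleted libraries held 92.3, 76.8, 90.6 and 94.2 FPKM, and again replicate 2 was the lowest of them and the groups did not overlap. The mean was 48.5 ± 16.2 FPKM in siC and 88.4 ± 7.93 FPKM in siIGF2BP1, a ratio of 1.82. ORM2 had a log2 difference of 0.92 (SE 0.237, 95% interval 0.36 to 1.48, adjusted p = 0.0498 by limma), which did not pass. Without siC replicate 3 it was 0.61 and passed (adjusted p = 0.0054 by limma).

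With siC replicate 3 left out, all 5 members passed as higher. In that fit 3.59% of all genes tested were higher and 6.67% were lower. With 1 of the other 6 libraries left out, 0 of the 5 passed, and all 5 kept a higher mean in siIGF2BP1. The unadjusted p of each of the 5 was under 0.05 in the fit of all 7 libraries, and 11.0% of all genes tested were higher and 14.8% lower by that measure.

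**Figure D2:**
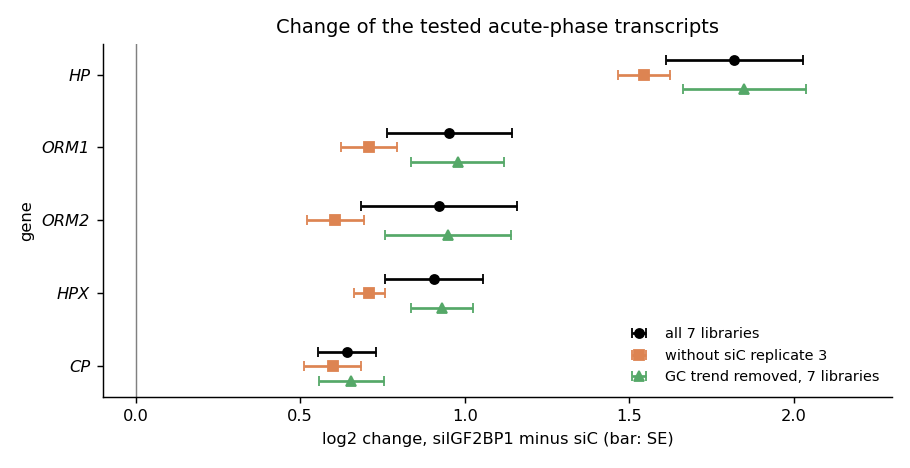
Log2 difference (siIGF2BP1 minus siC, on log2(FPKM + 0.1)) of the 5 tested members with its SE, from all 7 libraries (black circles), without siC replicate 3 (orange squares) and with each library's GC trend removed (green triangles). HP lies between 1.54 and 1.85, apart from the other 4, and each point is above 0.

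Whether the members moved by different amounts was examined through ratios within a library, which do not depend on library size. For 6 pairs of genes, the log2 ratio was compared between groups by an exact two-sided permutation test, which cannot go below 0.0571 with 3 against 4 libraries. These pairs were chosen after the values were seen. The ratio of HP to HPX was 0.154, 0.162 and 0.131 in siC and 0.30, 0.304, 0.257 and 0.293 in siIGF2BP1. The groups did not overlap, with a log2 difference of 0.95 (exact permutation p = 0.0571, adjusted p over the 6 pairs = 0.0857). HP also stood higher against CP (1.22), ORM1 (0.91) and HPR (0.63), each a log2 difference without overlap and with the same exact p. The ratio of ORM1 to ORM2 was from 1.38 to 1.62 in siC and from 1.43 to 1.56 in siIGF2BP1. It differed by 0.030 on the log2 scale, which is less than the SD of 0.127 between the siC libraries (exact permutation p = 0.743). The ratio of HPX to ORM1 differed by -0.044 (exact permutation p = 0.514).

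Levels between genes were compared per length, on the FPKM scale. In siC the order of the means was HP, CP, HPX, ORM2 and ORM1, from the lowest to the highest. Against the 10672 protein-coding genes tested, HP stood at percentile 15.6, CP at 63.8, HPX at 73.9, ORM2 at 92.9 and ORM1 at 95.7. In siC replicate 3 HPX and CP were close, at 12.4 and 11.2 FPKM. The gene length in the table counts 5405 bases for HP, whereas its canonical transcript has 1534. On canonical transcript lengths the siC means would be 8.86 for HP, 19.6 for CP, 38.2 for HPX, 48.6 for ORM2 and 82.2 FPKM for ORM1, in the same order.

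The remaining members were too low to be tested in the fit across genes. SAA4 (ENSG00000148965, chromosome 11, 18231355 to 18236802, minus strand) was the highest of them, at 0.315, 0.601 and 0 FPKM in siC and 0.455, 0.733, 0.311 and 0.742 FPKM in siIGF2BP1. These values stand for 5, 14 and 0 reads and for 6, 10, 3 and 7 reads, and the groups overlapped (exact permutation p = 0.286, two-sided). SAA1 (ENSG00000173432, 18266260 to 18269977, plus strand) had 1 read in siC and 2 in siIGF2BP1 over all libraries (exact permutation p = 0.571, two-sided). SAA2 (ENSG00000134339, 18239223 to 18248668, minus strand) had 3 and 5 reads (exact permutation p = 0.40, two-sided). The exons of SAA2 and SAA4 overlap the SAA2-SAA4 readthrough gene, which was listed at 0.

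CRP (ENSG00000132693, chromosome 1, 159712289 to 159714589, minus strand) had 0 reads in each of the 3 siC libraries. In siIGF2BP1 it had 2, 2, 0 and 1 reads, at most 0.0548 FPKM. The groups overlapped at 0 (exact permutation p = 0.229, two-sided). LBP (ENSG00000129988, chromosome 20, 38346482 to 38377013, plus strand) had 1 read in siC, in replicate 3, and 4 in siIGF2BP1 (exact permutation p = 0.40, two-sided). A count of 0 allows up to 3 reads, which is 0.0465 to 0.115 FPKM for CRP and 0.122 to 0.302 FPKM for SAA1, depending on the library. These limits cover counting error only. SAA1, SAA2, CRP and LBP held at most 2 reads in any library of either group, and a change among such low levels was not detectable at this depth.

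**Figure D3:**
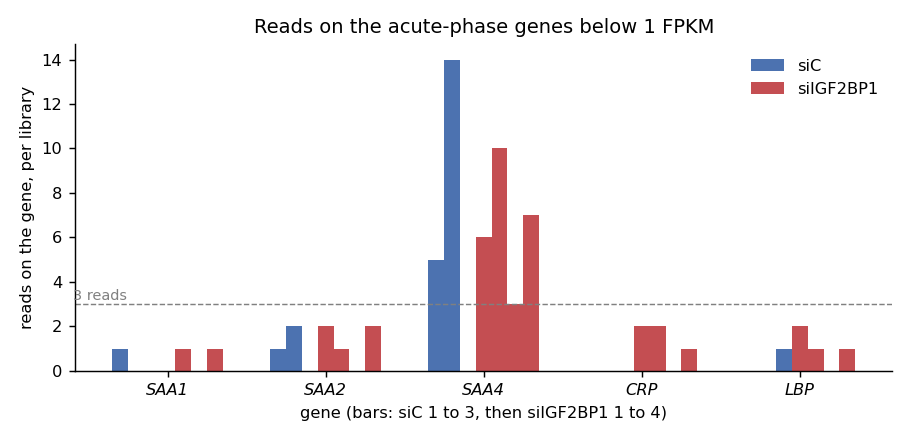
Reads on SAA1, SAA2, SAA4, CRP and LBP, 1 bar per library (siC replicates 1 to 3 in blue, then siIGF2BP1 replicates 1 to 4 in red, linear axis). SAA4 alone exceeds the dashed line at 3 reads, with up to 14 reads in siC and up to 10 in siIGF2BP1.

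Positive acute-phase genes are those that rise in the acute phase. A further list held 20 other genes that were counted as such, and whether each does so in human cells was not examined. Of these 13 were tested, of which 1 was higher and 0 were lower, with a median log2 difference of 0.24 and a higher mean for 8 of 13. At an unadjusted p under 0.05, 5 were higher and 4 were lower, beside 11.0% and 14.8% of all genes tested. The gene that passed was HAMP, which encodes the iron-regulating hormone hepcidin and which reached the filter of 1 FPKM through the siIGF2BP1 group only. It was at 0.528 ± 0.024 FPKM in siC and 3.01 ± 0.287 FPKM in siIGF2BP1, a log2 difference of 2.305 (adjusted p = 0.000426 by limma). Its libraries held from 22 to 173 reads, it passed without a filter too (adjusted p = 0.000897 by limma), and it was not tested with a filter of 5 FPKM. The fibrinogen chain FGB was at 332.7 ± 53.5 and 267.1 ± 5.02 FPKM, with a log2 difference of -0.30 (adjusted p = 0.153 by limma). Without siC replicate 3, 3 of the 13 were higher (HAMP, C3 and AGT) and 4 were lower (FGA, FGB, FGG and A2M). In that fit FGB was at -0.44 (adjusted p = 0.000989 by limma) and the protease inhibitor A2M at -0.63 (adjusted p = 0.000598 by limma). SERPINA3, CFB, C9, ITIH3, ITIH4, LCN2 and PTX3 were below the filter.

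Plasma proteins that fall in the acute phase, carriers among them, had a median log2 difference of 0.28 over 9 tested genes of 12. Of the 9, 7 had a higher mean in siIGF2BP1. None of the 9 passed (limma), with 4 higher and 1 lower at an unadjusted p under 0.05, beside 11.0% and 14.8% of all genes tested. ALB, the most abundant, was at 1814 ± 95.3 FPKM and 1993 ± 46.5 FPKM (log2 difference 0.14, adjusted p = 0.443 by limma). After quantile normalization the log2 difference of ALB was 0.53 and passed (adjusted p = 0.0020 by limma). APOA1, the main protein of high-density lipoprotein, had a log2 difference of 0.44 (adjusted p = 0.283 by limma). In APOA1, siC replicate 3 was the lowest library, at 277.4 FPKM beside 531.0 and 523.8 FPKM, and without it the log2 difference was 0.13. The genes of this list named next were picked after their values were seen. AHSG, the plasma glycoprotein fetuin-A, had a log2 difference of 1.25 (adjusted p = 0.0115 by limma) and transferrin (TF), the iron carrier, 0.79 (adjusted p = 0.0529 by limma), and in neither did the groups overlap. Without siC replicate 3, 3 of the 9 were higher (TF, RBP4 and AHSG) and 1 was lower (TTR). AHSG was then at 0.97 and TF at 0.51 (adjusted p = 0.000459 and 0.000717 by limma).

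Cytokines, receptors and signal carriers upstream of the members held 16 tested genes of 20, of which 4 rose and 2 fell. Of all genes tested, 1.65% were higher and 2.28% lower at this threshold. LIF, a cytokine of the interleukin-6 family, was at 1.31 ± 0.213 FPKM in siC and 4.55 ± 0.661 FPKM in siIGF2BP1, a log2 difference of 1.72 (adjusted p = 0.00118 by limma). IL1R1, the signalling receptor of interleukin-1, was at 7.41, 7.35 and 6.80 FPKM in siC and 15.9, 14.8, 15.3 and 15.2 FPKM in siIGF2BP1. These values gave it a log2 difference of 1.08 (adjusted p = 0.000386 by limma). Its partner chain IL1RAP rose too, with a log2 difference of 0.66 (adjusted p = 0.00117 by limma).

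IRAK1, a kinase below that receptor, fell from 51.6 ± 1.87 FPKM to 27.6 ± 1.93 FPKM (log2 difference -0.90, adjusted p = 0.000917 by limma). MYD88, the adaptor that links receptor and kinase, and SOCS3, an inhibitor of JAK kinases, were the other genes of this list to pass and are named after their values were seen. MYD88 fell, with a log2 difference of -0.76 (adjusted p = 0.00256 by limma) and SOCS3 rose by 1.10 (adjusted p = 0.00649 by limma). LIF, IL1R1 and IRAK1 passed in each of the 7 fits without 1 library, IL1RAP in 6, MYD88 in 3 and SOCS3 in 1. Of the cytokines themselves, TNF and OSM were at 0 in each library, and IL6 and IL1B were below the filter.

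All 12 transcription factors of acute-phase genes were tested, and 1 rose, beside 1.65% of all genes tested. STAT3, which carries the interleukin-6 signal, was at 10.2, 10.5 and 9.62 FPKM in siC and 15.0, 14.4, 14.2 and 14.4 FPKM in siIGF2BP1. The groups were well apart, with a log2 difference of 0.52 (adjusted p = 0.00263 by limma), and it passed in 1 of the 7 fits without 1 library, that without siC replicate 3. CEBPA, the most abundant of the factors, was at 246.1 ± 6.40 FPKM and 235.0 ± 11.6 FPKM (log2 difference -0.067, adjusted p = 0.610 by limma). The median log2 difference over the 12 was -0.043, and 5 had a higher mean in siIGF2BP1.

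**Figure D4:**
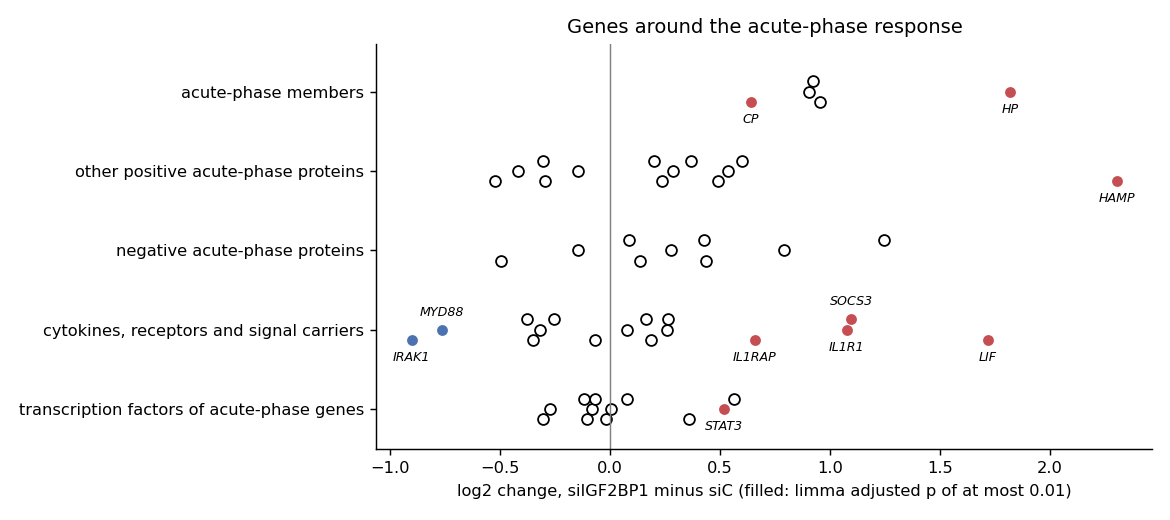
Log2 difference (siIGF2BP1 minus siC) of each tested gene of the acute-phase members and of 4 related lists, with genes past a limma adjusted p of 0.01 filled (red higher, blue lower) and named. HP at 1.82 and HAMP at 2.305 lie farthest to the right, and IRAK1 and MYD88 are the genes filled in blue.

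The genes that receive or resemble the members were mostly at low levels. Of 10 receptors 3 were tested and 0 passed. Among the 3 was CD14, the lipopolysaccharide receptor that LBP serves, which reached the filter through the siIGF2BP1 group only (0.892 and 2.25 FPKM on average). SCARB1, a receptor of high-density lipoprotein, and LRP1, which takes up the hemopexin complex, had log2 differences of 0.45 and 0.34 (adjusted p = 0.0540 and 0.176 by limma). CD163, the haptoglobin receptor of macrophages, was at 0 in each library. Of 9 relatives of the members 2 were tested and 0 passed, with 1 higher at an unadjusted p under 0.05. HPR was at 3.93, 3.34 and 1.81 FPKM in siC and 6.75, 7.22, 6.05 and 7.13 FPKM in siIGF2BP1, with no overlap and a log2 difference of 1.21 (adjusted p = 0.0227 by limma). PLTP, of the family of LBP, had a log2 difference of 0.35 (adjusted p = 0.468 by limma), and -0.013 without siC replicate 3. HPR passed without that library, with 0.89 (adjusted p = 0.00267 by limma).

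Among the hepatocyte markers, 1 of 10 rose and 0 fell, beside 1.65% and 2.28% of all genes tested. Without siC replicate 3, TF and APOH were higher and TTR and FGB lower. APOH, which encodes β2-glycoprotein I, went from 48.6 ± 10.0 FPKM to 154.3 ± 7.73 FPKM, a log2 difference of 1.69 (adjusted p = 0.00111 by limma). AFP, the fetal serum protein, had a log2 difference of -0.19 (adjusted p = 0.450 by limma), which was 0.33 after quantile normalization. Of the markers of other liver cells 3 were tested and 0 passed, with 1 lower at an unadjusted p under 0.05. LYZ and KRT19 had log2 differences of -0.37 and -0.18 (adjusted p = 0.0222 and 0.641 by limma). Without siC replicate 3, the fit in which all 5 tested members passed, both passed as lower, LYZ with -0.42 and KRT19 with -0.46 (adjusted p = 0.00502 and 0.00878 by limma). The part of these markers in the values of the members was not tested.

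Over the 7 libraries, the genes with a pattern most like that of HP, the member with the smallest p, were LOX, EFNA1 and SPON2. Their log2 values had a Pearson correlation of 0.998, 0.997 and 0.997 with HP among 10667 protein-coding genes ranked. The points fall into the 2 groups of the study and share their libraries, so these values describe a profile across both groups and no relation within a group. EFNA1 was at 14.2 ± 2.39 FPKM and 33.1 ± 1.0 FPKM, and LOX at 25.0 ± 1.138 and 30.8 ± 0.340 FPKM. With HP, the correlation was 0.989 for HPX, 0.966 for ORM1, 0.964 for CP and 0.943 for ORM2.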

How the data were processed

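Total RNA of 7 Huh-7 libraries was depleted of ribosomal RNA and sequenced with a directional kit. According to the methods and the submitters' processing notes, the authors used Cutadapt (1.14), HISAT2 (2.1.0) on GRCh38, featureCounts (1.5.3) over Ensembl genes and edgeR (3.18.1) with TMM scaling. The deposited FPKM values per gene and library were the input here. The table also holds the study's own log2 fold changes, p-values and FDR, which were not used.

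Reads were recovered from FPKM times gene length, which came out whole (within 0.01 reads) for 100% of the nonzero entries. The 14839 genes averaging 1 FPKM or more were tested with limma 3.58.1 (R 4.3.3) on log2(FPKM + 0.1) with a mean-variance trend and two-sided p-values adjusted by Benjamini-Hochberg (threshold 0.01), on siIGF2BP1 against siC without covariates. Fold changes on this scale understate those of low genes. Members under the filter had an exact permutation test (SciPy 1.17.1). The fit was also run on simulated reads with 200 changed genes. These reads had no GC trend and no library that stood apart, so that run does not cover these features of the data. GC content came from GENCODE transcripts.

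Coordinates and exons are those of GENCODE v44 on GRCh38, matched by Ensembl identifier. The members and lists were chosen with earlier results of these data known. Genes of a list were named when they passed, at most 4 by p, and otherwise by abundance. Alternatives were a pseudocount of 1, other filters, scalings and variance models, voom on the recovered reads, GC correction, a replicate block, each library left out in turn and a threshold of 0.05. Libraries of the same group differed by more than counting error (chi-square divided by its degrees of freedom, 1.99 to 56.8). Pairs with siC replicate 3 were at 53.6 and 56.8, and all other pairs were from 1.99 to 9.81.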

Additional observations from a re-analysis of the deposited data

Results flagged for a closer look

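Among the 4 siIGF2BP1 libraries, replicate 2 lay far from the others for 3 of 24 genes examined, where chance alone gives about 1.2. SCARB1 had 26.2 FPKM there beside 21.3, 21.0 and 21.0 FPKM in the rest, so that the gap made up 0.952 of the range. IL1RAP was at 12.2 FPKM beside 12.9, 13.1 and 13.1 FPKM (0.859 of the range). KRT19 was at 32.3 FPKM beside 37.5, 38.4 and 37.8 FPKM (0.849 of the range). Each gap exceeded Dixon's critical value for 4 samples. The distance of this library from its group followed GC content with a Spearman's rho of -0.398 over 14711 genes, beside -0.00055, 0.267 and 0.233 in replicates 1, 3 and 4, and the part of that trend in the 3 values was not tested. None of the 5 tested members had such a library.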

How the results depend on the processing

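HP (log2 change from 1.51 to 1.97), HPX (0.71 to 1.01), CP (0.57 to 0.71), ORM1 (0.71 to 1.09) and ORM2 (0.61 to 1.09) kept a higher mean in siIGF2BP1 in each of 18 alternative fits. They passed the threshold in 11, 8, 10, 6 and 2 of these. In the test as reported 2 members were higher. This number was 5 with array weights and with a threshold of 0.05, 4 with the GC trend removed, with protein-coding genes only, with quantile normalization and with voom, and 1 without a filter. The count of genes called higher moved as well, from 245 in the test as reported. It was 1022 with array weights, 703 at a threshold of 0.05 and 473 with the GC trend removed. It was 360 with protein-coding genes only, 279 with quantile normalization, 353 with voom and 146 without a filter. Leaving out 1 library gave from 0 to 5 members, 5 being the value without siC replicate 3. No member passed as lower under any alternative.

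The replicate block over replicates 1 to 3 left 0 genes higher, 0 lower, and 0 members or list genes past the threshold, and IGF2BP1 itself did not pass (log2 change -2.36, limma adjusted p = 0.0944). Deviations of libraries with the same number had correlations of -0.026, -0.118 and -0.111. Those of libraries with different numbers ran from -0.169 to 0.201. The deviations are taken from means of only 3 or 4 libraries, so these correlations cannot decide whether equal numbers mark paired libraries. The labels do not say so either.

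Over all genes, 245 were higher and 338 lower, and over the related lists 7 were higher and 2 lower. Leaving out 1 library gave from 66 to 533 genes higher, 53 to 990 lower, 4 to 14 list genes higher and 1 to 10 list genes lower. With the GC trend removed 473 were higher, 515 lower and 13 list genes higher. With array weights the values were 1022, 1722, 20 list genes higher and 15 lower. At a threshold of 0.05 they were 703, 1010, 15 and 6. Without a filter 146 were higher and 206 lower, and with protein-coding genes only 511 were lower. Quantile normalization reversed AFP (0.33) and CEBPA (0.065), and leaving out siC replicate 3 reversed PLTP (-0.013, beside up to 0.56 without siC replicate 1). ALB passed as higher after quantile normalization (0.53, limma adjusted p = 0.0020). The 15 list genes lower with array weights included AFP (-0.30, limma adjusted p = 0.00805) and FGB (-0.44, limma adjusted p = 0.000465). The causes were not tested. SAA1, SAA2, CRP and LBP held at most 2 reads in any library, and changes among such low levels could not be resolved at these depths.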
